A study of Mus musculus with 8 samples.

Results

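The insulin-like growth factor (IGF) receptors, the secreted IGF-binding proteins and the IGF2 mRNA-binding proteins were followed in mouse embryonic stem (ES) cells given an esiRNA against Ctr9. The members are the 10 genes Igf1r, Insr, Igfbp2, Igfbp3, Igfbp4, Igfbp5, Igfbp6, Igf2bp1, Igf2bp2 and Igf2bp3, taken by name, and each was read by every probe set whose platform annotation gives that symbol and no other. Of the 10 members, 9 had such a probe set, 30 probe sets in all, out of 18193 genes and 45037 tested probe sets. Igf2bp2 had none in the annotation used here and has no value below. The Igf2bp genes share a name with the Igfbp genes and not a function, since their products bind mRNA, among them the Igf2 mRNA, and not the growth factor itself. They are therefore described as a class of their own.

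RNA was read on 8 Affymetrix arrays of 1 colour, 4 of them from cells transfected with Ctr9 esiRNA and 4 from cells transfected with luciferase esiRNA, the control, whose target these cells do not make. An esiRNA is a mixture of short double-stranded RNAs cut from a longer transcript, and it was delivered here by lipofection. All samples are ES cells labelled with the strain Oct4-Gip at passage 25, taken on day 4, so both groups share the line, the passage, the transfection and the time. Ctr9 is a subunit of the Paf1 complex, which accompanies RNA polymerase II along genes, and the question is which transcript levels differ after its esiRNA.

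IGF1 and IGF2 signal mainly through the IGF1 receptor and also reach the insulin receptor, both of which are tyrosine kinases at the cell surface that act through adaptor proteins, PI3 kinase and Akt. In the fluid around cells the growth factors are held by IGF-binding proteins, which can keep them from the receptors or carry and store them, and which proteases cut to set the growth factor free. Inside the cell, the Igf2bp proteins, which are made in embryonic tissue, bind mRNAs and govern their location, stability and translation. Igf2bp1 and Igf2bp3 are largely silent in most adult tissue.

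The arrays were close to each other in scale, with upper quartiles of 8.10 to 8.15 on the log2 scale, and correlated at 0.9975 to 0.9982 within a group and 0.9924 to 0.994 between groups. The labels do not tell whether replicates are separate cultures. The p-values then cover only how far these samples scatter, possibly for technical reasons, and the number of arrays limits the precision. Markers of ES cells were bright, with none of 10 below the median signal and a mean of 12.52 to 12.56 on the Ctr9 esiRNA arrays, against 12.85 to 12.87 on the luciferase arrays. By brightest probe set, 5 of the 10 were lower, 1 was higher and 4 did not pass (limma, Benjamini-Hochberg adjusted p under 0.05). Among all genes 15% were lower and 15.8% higher. The log2 differences were -1.1 for Esrrb, -0.94 for Fgf4, -0.46 for Zfp42, -0.44 for Nanog and -0.2 for Pou5f1, and Sall4 rose by 0.17. Ctr9 itself read 10.11 with Ctr9 esiRNA and 10.20 with luciferase esiRNA on the brightest of its 5 probe sets, a log2 difference of -0.09 (SE 0.047) that did not pass (limma, Benjamini-Hochberg adjusted p = 0.209). Of the other Ctr9 probe sets, 2 fell, by 0.15 and 0.18. Another, at 6.20 with Ctr9 esiRNA and 5.90 with luciferase esiRNA, rose by 0.29 (limma adjusted p = 0.0228). The dimmest differed by 0.27 (SE 0.12) and did not pass (limma adjusted p = 0.125). Below, the group names are those of the labels, and no direction rests on a measured loss of Ctr9.

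Most of the measured members rose and none fell. Of the 30 member probe sets, 23 were higher with Ctr9 esiRNA and none lower in the limma fit at a Benjamini-Hochberg adjusted p under 0.05 (and none lower at an unadjusted p under 0.05), against 11.8% higher and 13.1% lower among all tested probe sets. Read by the brightest probe set of each gene, 6 of 9 members rose (Igf1r, Insr, Igfbp2, Igfbp3, Igfbp4 and Igf2bp1), against 15.8% higher, 15% lower and 30.8% in either direction among all genes, and Igfbp5, Igfbp6 and Igf2bp3 did not pass. The median log2 difference of the 9 members was 0.21, against 0.0036 over all 18193 genes. On 24 of the 30 probe sets every Ctr9 esiRNA value lay above every luciferase value, against 13.7% of all tested probe sets (28.6% with separate groups in either direction). In bulk RNA, fewer cells of a kind and less RNA per cell cannot be told apart, and the same holds for more of either.

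**Figure D1:**
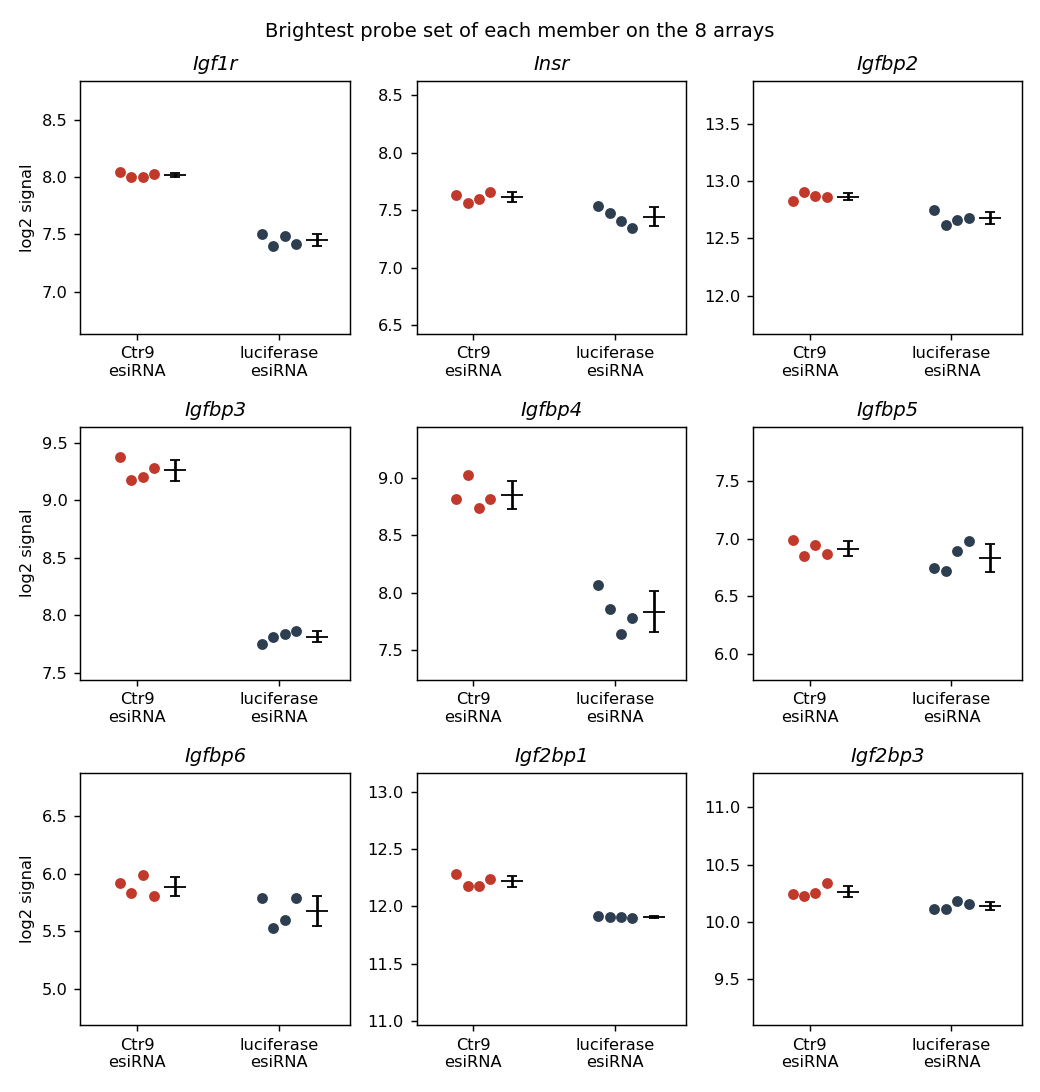
Log2 signal (vertical axis) of the brightest probe set of each of the 9 measured members, a point per array, with the Ctr9 esiRNA arrays in red on the left and the luciferase esiRNA arrays in dark blue on the right of each panel; bars are the mean and SD (n = 4), and every panel spans the same number of log2 units around its own level. The groups lie farthest apart for Igfbp3 and Igfbp4, stand apart for Igf1r and Igf2bp1, and overlap for Igfbp5.

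Promoter windows are shown for the 4 members with the largest differences on any of their probe sets (for Igfbp5 the dim one). These are the stretches around annotated transcript starts, and whether they have a part in the differences was not tested. RefSeq's table for GRCm38.p6 held windows for 8 of the 10 members, each running from 250 bases before to 50 bases after an annotated start. Capitals mark matches on either strand to the letters TATAAA or TATATA (forms of the TATA box), GGGCGG (the GC box), GTAAACA (a forkhead core) and GGAATG (a TEAD core). These motifs were chosen with the results known, TATATA is the same on both strands, and TATAAA and TATATA can share letters. The windows lie at chr11:7213874-7214173 on the minus strand for Igfbp3, chr11:99040994-99041293 on the plus strand for Igfbp4, chr1:72874816-72875115 on the minus strand for Igfbp5 and chr7:67952007-67952306 on the plus strand for Igf1r, and each is written 5′ to 3′ along its gene.
Igfbp3: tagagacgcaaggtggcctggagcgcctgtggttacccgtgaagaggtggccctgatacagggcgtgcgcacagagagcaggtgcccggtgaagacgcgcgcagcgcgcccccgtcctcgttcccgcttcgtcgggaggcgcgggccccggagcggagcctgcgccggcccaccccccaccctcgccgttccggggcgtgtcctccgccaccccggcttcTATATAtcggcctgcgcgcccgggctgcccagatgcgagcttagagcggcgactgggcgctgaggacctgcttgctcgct
Igfbp4: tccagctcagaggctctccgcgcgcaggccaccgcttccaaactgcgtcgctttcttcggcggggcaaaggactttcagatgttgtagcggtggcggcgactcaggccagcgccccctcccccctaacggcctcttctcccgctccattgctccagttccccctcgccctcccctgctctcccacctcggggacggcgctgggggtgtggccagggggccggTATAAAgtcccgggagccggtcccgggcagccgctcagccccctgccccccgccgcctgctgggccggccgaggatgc
Igfbp5: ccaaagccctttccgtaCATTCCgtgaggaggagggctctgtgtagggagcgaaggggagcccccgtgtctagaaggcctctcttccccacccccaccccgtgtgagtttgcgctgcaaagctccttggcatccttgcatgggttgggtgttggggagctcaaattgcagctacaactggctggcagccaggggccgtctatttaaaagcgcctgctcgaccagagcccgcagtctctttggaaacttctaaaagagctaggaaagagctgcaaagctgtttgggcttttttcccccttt
Igf1r: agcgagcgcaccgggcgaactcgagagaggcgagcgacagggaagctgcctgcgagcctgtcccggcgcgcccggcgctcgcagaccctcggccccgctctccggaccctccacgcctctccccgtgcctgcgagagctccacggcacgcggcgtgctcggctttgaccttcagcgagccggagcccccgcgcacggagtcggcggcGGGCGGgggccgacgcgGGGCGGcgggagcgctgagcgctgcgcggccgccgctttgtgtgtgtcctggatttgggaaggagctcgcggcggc
In the Igfbp3 window TATATA begins 30 bases before the start, and in the Igfbp4 window TATAAA begins 28 bases before it. Either sequence on the gene's own strand, beginning 25 to 35 bases before the start, occurs in 2.4% of 32817 windows of the same length, whereas anywhere and on either strand TATAAA occurs in 13.6% and TATATA in 5.67%. The Igf1r window holds 2 GC boxes, a motif of 35.6% of windows, and none of the other letters searched. The Igfbp5 window holds a single GGAATG match, on the opposite strand 233 bases before the start, and 14.7% of windows hold that motif. No GTAAACA, which 3.65% of windows hold, was found in any window of a member. Among the windows not printed, one of Igfbp2 and that of Igf2bp2 held GC boxes. The Igfbp6 window held TATAAA on the opposite strand, 148 bases before the start, and the Igf2bp3 window held none of the letters searched. A match describes letters in a window and not a bound site.

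Among the receptors, Igf1r rose. Its brightest probe set read 8.04, 8.0, 8.0 and 8.03 on the 4 Ctr9 esiRNA arrays, against 7.5, 7.40, 7.49 and 7.42 on the 4 luciferase arrays. All 4 Ctr9 esiRNA values lay above all luciferase values, with a gap of 0.50 between the groups, and the log2 difference was 0.57 (SE 0.045, limma, Benjamini-Hochberg adjusted p = 1.19e-05), a 1.48-fold change. The next 2 Igf1r probe sets gave nearly the same size, at 0.54 (SE 0.064) and 0.51 (SE 0.063), and both passed with groups that did not overlap. The other 2 Igf1r probe sets were dim, at 4.75 and 4.50 with luciferase esiRNA, and neither passed (-0.18, SE 0.11, and 0.23, SE 0.089). The size of the Igf1r rise therefore rests on 3 probe sets that gave 1.42-fold to 1.48-fold, and those calls held under all 18 alternatives tried, at limma adjusted p up to 0.00491. By the platform annotation, the brightest and the third of these share a source sequence, so the 3 are not fully separate readings. The second shares its source sequence with the dimmest Igf1r probe set, which did not pass.

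Insr, the insulin receptor, of which an isoform also binds IGF2, shifted less. Its brightest probe set read 7.63, 7.56, 7.60 and 7.66 with Ctr9 esiRNA, against 7.54, 7.48, 7.41 and 7.35 with luciferase esiRNA. The groups were separated by 0.02, less than the spread within either, and the difference was 0.17 (SE 0.054, 1.12-fold, limma adjusted p = 0.0469). This call ended in 7 of the 8 fits that leave out an array, and its adjusted p ran from 0.0158 to 0.286 over the alternatives, the highest without luciferase arrays 3 and 4. The dimmer Insr probe sets differed by -0.01 (SE 0.055) and -0.04 (SE 0.067) and did not pass, with 95% intervals from -0.14 to 0.11 and from -0.19 to 0.11. The mean of the 3 Insr probe sets differed by 0.04 and did not pass either (limma adjusted p = 0.564).

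The secreted IGF-binding proteins held the largest differences among the members. Of their 12 probe sets, 10 rose and 2 did not pass, and all 12 differences were positive, at a median of 0.55. Among all tested probe sets 11.8% were higher, and Igfbp4 alone holds 6 of the 12. By brightest probe set, 3 of the 5 genes rose and 2 did not pass, at a median of 0.21, against 15.8% higher among all genes. Igfbp3, the main carrier of IGFs in serum, read 9.38, 9.18, 9.20 and 9.28 with Ctr9 esiRNA, against 7.75, 7.81, 7.84 and 7.86 with luciferase esiRNA, on its brightest probe set. The lowest Ctr9 esiRNA value stood 1.33 above the highest luciferase value, a gap many times the spread within either group. The log2 difference was 1.45 (SE 0.055), or 2.72-fold (limma adjusted p = 1.51e-07), larger than that of 99.6% of all genes. The other Igfbp3 probe set, of similar brightness, rose by 1.16 (SE 0.082), or 2.24-fold (limma adjusted p = 5.77e-06). Both calls held under all alternatives tried, with differences of 1.41 to 1.48 and of 1.1 to 1.24.

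Igfbp4, a binding protein known to restrain IGF action and to be cut by the protease Pappa, rose on all 6 of its probe sets. The brightest read 8.82, 9.03, 8.74 and 8.82 with Ctr9 esiRNA, against 8.07, 7.86, 7.64 and 7.78 with luciferase esiRNA, a difference of 1.01 (SE 0.094, 2.02-fold, limma adjusted p = 3.38e-05). The fourth in brightness gave 8.06, 8.27, 8.06 and 8.05 with Ctr9 esiRNA, against 7.35, 7.02, 6.94 and 6.99 with luciferase esiRNA, a difference of 1.04 (SE 0.092). The lowest Ctr9 esiRNA value stood 0.67 above the highest luciferase value on the brightest and 0.70 above it on the other. The probe sets between and below them changed less: 3 rose by 0.47 to 0.55, and the dimmest rose by 0.27 (SE 0.075, limma adjusted p = 0.0224), a call that ended in 5 of the 8 fits without an array. The change of Igfbp4 therefore ranged from 1.21-fold to 2.05-fold with the probe set taken, and the mean of the 6 probe sets differed by 0.65 (limma adjusted p = 9.67e-06). By their suffix, 2 of the 6 are of the manufacturer's x type, in which probes can also match other transcripts, and these 2 differed by 0.55 and 0.47. The Igfbp4 probe set at 1.04 is of the s type, whose probes can be shared by several transcripts. So are the Igfbp3 probe set at 1.16 and the Igfbp5 probe set at 1.34. Igf2bp1 and Igf2bp3 also have x-type probe sets, and the brightest of Igf2bp3 is of the s type.

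The 2 Igfbp5 probe sets disagreed. Igfbp5 encodes a binding protein that attaches to extracellular matrix. The brighter probe set read 6.99, 6.85, 6.95 and 6.87 with Ctr9 esiRNA, against 6.75, 6.72, 6.89 and 6.98 with luciferase esiRNA, so the groups overlapped, and the difference of 0.08 (SE 0.066, 95% interval -0.07 to 0.23) did not pass (limma adjusted p = 0.443). The dimmer one read 5.27, 4.71, 5.40 and 5.46 with Ctr9 esiRNA, against 3.93, 3.70, 4.09 and 3.76 with luciferase esiRNA, and rose by 1.34 (SE 0.15, limma adjusted p = 0.000146). Its groups did not overlap, although Ctr9 esiRNA replicate 2 lay well below the other 3. With luciferase esiRNA this probe set was among the dim ones of the array, where RMA compresses differences. A background level is not part of the table, so the size of that rise is uncertain. The mean of the 2 Igfbp5 probe sets differed by 0.71 and passed (limma adjusted p = 0.000203), but it averages 0.08 and 1.34. The call for Igfbp5 therefore depends on the probe set taken. Which parts of the Igfbp5 transcript the probe sets cover was not analysed here.

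Igfbp2 and Igfbp6, which both bind IGF2 more tightly than IGF1, were read by a single probe set each. The Igfbp2 probe set was brighter than 98.9% of all probe sets and read 12.83, 12.90, 12.87 and 12.86 with Ctr9 esiRNA, against 12.75, 12.62, 12.66 and 12.68 with luciferase esiRNA. It rose by 0.19 (SE 0.046, 1.14-fold, limma adjusted p = 0.0138), with groups that did not overlap. Leaving out luciferase arrays 3 and 4 was among the settings that ended the call (limma adjusted p = 0.0826). Igfbp6 read 5.92, 5.83, 5.99 and 5.81 with Ctr9 esiRNA, against 5.79, 5.53, 5.60 and 5.79 with luciferase esiRNA, near the median signal of all probe sets. Its groups were separated by 0.02, and its difference of 0.21 (SE 0.073) did not pass (limma adjusted p = 0.0587, and 0.0268 to 0.144 over the alternatives).

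**Figure D2:**
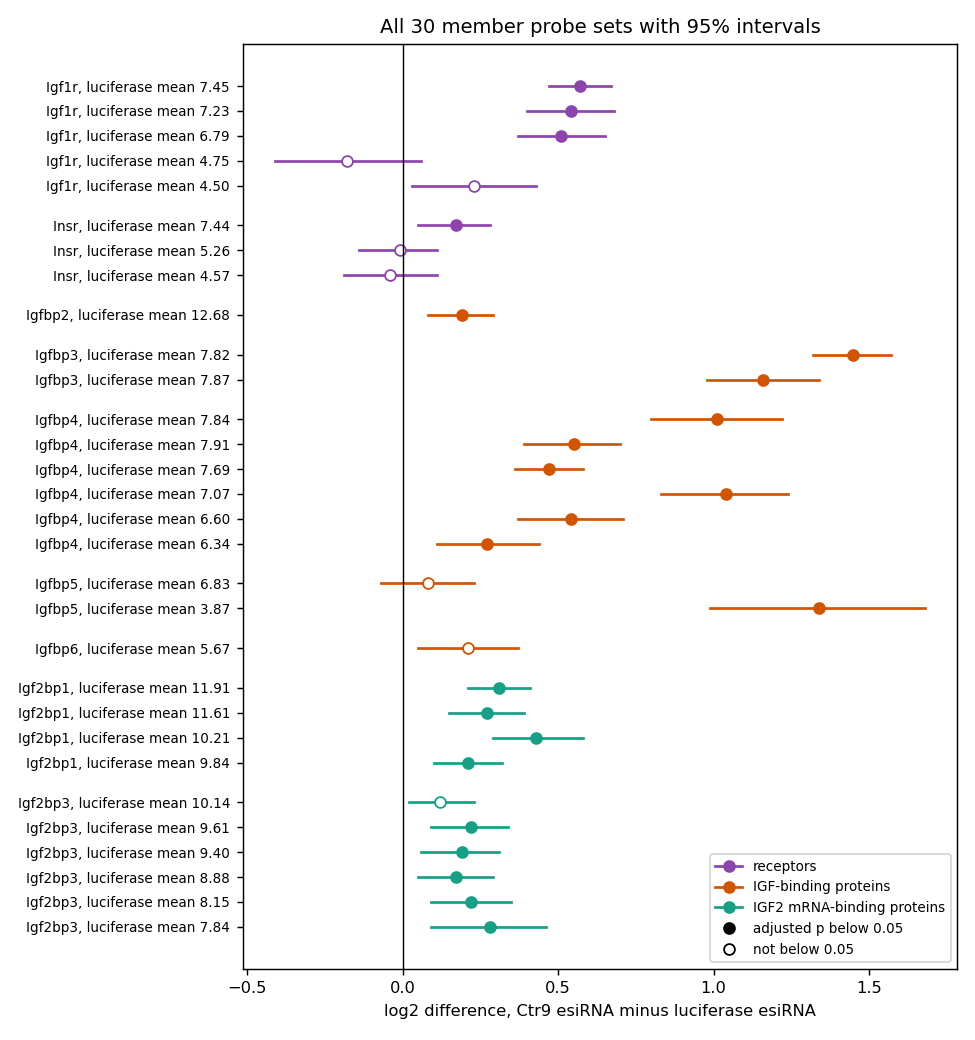
Log2 difference, Ctr9 esiRNA minus luciferase esiRNA (horizontal axis), of all 30 member probe sets, each row labelled with its gene and its mean log2 signal in the luciferase arrays; lines are limma's 95% intervals and filled points passed at an adjusted p under 0.05. The 6 Igfbp4 probe sets spread from 0.27 to 1.04, the 2 Igfbp5 probe sets stand at 0.08 and 1.34, and the 10 Igf2bp probe sets all lie between 0.12 and 0.43.

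Among the mRNA-binding proteins, Igf2bp1 rose by a small and repeatable amount. Igf2bp1, also known for moving beta-actin mRNA to the cell edge, read 12.28, 12.18, 12.18 and 12.24 with Ctr9 esiRNA, against 11.92, 11.91, 11.91 and 11.90 with luciferase esiRNA, on its brightest probe set. Every Ctr9 esiRNA value was higher than every luciferase value, and the difference was 0.31 (SE 0.044, 1.24-fold, limma adjusted p = 0.00056). The other 3 Igf2bp1 probe sets rose by 0.27, 0.43 and 0.21, each with groups that did not overlap, and the mean of the 4 differed by 0.31 (limma adjusted p = 0.000124). Of these calls only that of the dimmest probe set ended under an alternative, without luciferase arrays 1 and 2 (limma adjusted p = 0.0727).

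Igf2bp3, a close relative of Igf2bp1, gave differences of one sign that were near the limit of the test. On its brightest probe set it read 10.24, 10.23, 10.25 and 10.34 with Ctr9 esiRNA, against 10.11, 10.11, 10.18 and 10.16 with luciferase esiRNA. The groups did not overlap, but the difference of 0.12 (SE 0.046, 1.09-fold) did not pass (limma adjusted p = 0.0772). The other 5 Igf2bp3 probe sets rose by 0.17 to 0.28, and 3 of these calls ended in 5 to 7 of the 8 fits without an array. The other 2 ended without luciferase arrays 1 and 2 (limma adjusted p = 0.107) or without luciferase arrays 3 and 4 (limma adjusted p = 0.0628). The mean of all 6 probe sets differed by 0.20 and passed (limma adjusted p = 0.00348), so the call for Igf2bp3 depends on the probe set taken while its sign was the same on all 6.

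**Figure D3:**
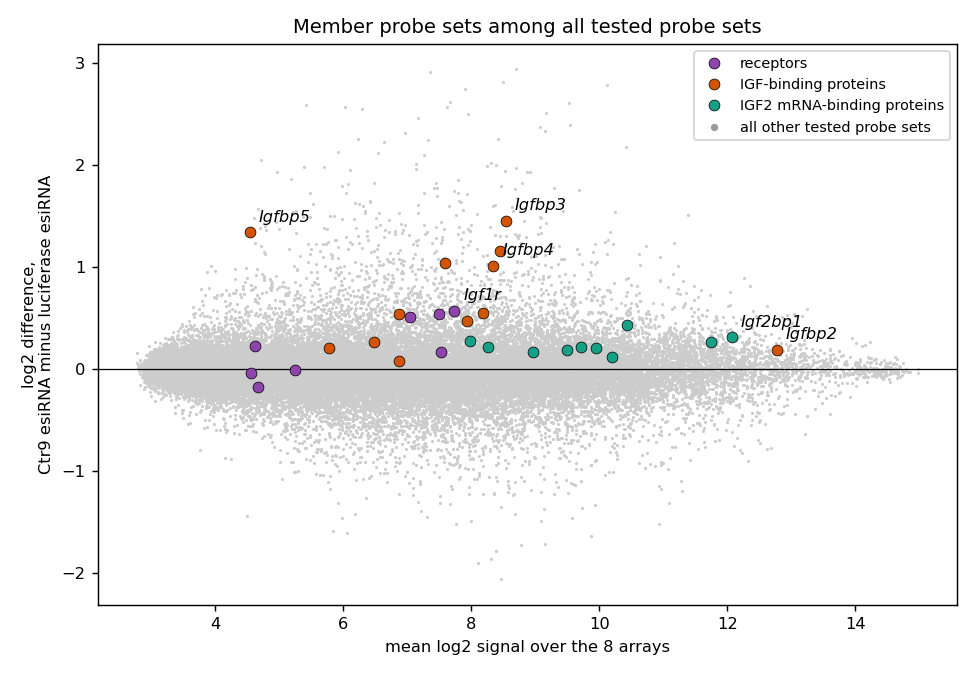
Log2 difference, Ctr9 esiRNA minus luciferase esiRNA (vertical axis), against the mean log2 signal over the 8 arrays (horizontal axis) for all 45037 tested probe sets in grey, with the 30 member probe sets coloured by class. Of the member probe sets, 27 lie above 0 and 3 below, and the 3 below are dim receptor probe sets.

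The position of each member among all genes shows the range of sizes. By brightest probe set, the difference of Igfbp4 exceeded that of 99.0% of all genes, that of Igf1r 96.7%, that of Igf2bp1 91.5%, and those of Igfbp6, Igfbp2 and Insr 86.2%, 84.1% and 82.0%. Igf2bp3 stood at 76.4% and Igfbp5, on its brighter probe set, at 68.7%. A difference of at least 2-fold in either direction was found for 1.34% of all genes, and Igfbp3 and Igfbp4 are the members among them by that reading. All 3 member probe sets with a negative difference were among the 5 that read below the median signal.

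Of the growth factors and the remaining genes of the IGF axis, Igf2 had the largest difference. Igf2, an imprinted gene and the ligand shared by both receptors and most binding proteins, read 11.44, 11.61, 11.47 and 11.54 with Ctr9 esiRNA, against 8.72, 8.57, 8.97 and 8.66 with luciferase esiRNA, a rise of 2.79 (SE 0.081). Its other, dim probe set read 4.64 with Ctr9 esiRNA and 3.90 with luciferase esiRNA and rose by 0.74 (SE 0.067), or 1.68-fold, against 6.89-fold on the brightest. Igf2r, also imprinted, whose product takes IGF2 to the lysosome, fell by 0.42 (SE 0.087, limma adjusted p = 0.00521) and, on its other probe set, by 0.18 (SE 0.057). None of the 4 Igf1 probe sets passed, and all read below the median signal. Of 10 measured genes among ligands and other IGF-binding proteins, 2 rose, 1 fell and 7 did not pass, at a median of 0.1, counts near the 15.8% higher and 15% lower of all genes. The second that rose was Igfbp1, the neighbour of Igfbp3 on its chromosome, which read 4.10 with Ctr9 esiRNA and 3.76 with luciferase esiRNA, both dim, a difference of 0.35 (SE 0.078).

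Of 13 genes for proteases that cut IGF-binding proteins and for inhibitors of these, 2 rose, 3 fell and 8 did not pass, at a median of 0.03, again near the 15.8% and 15% of all genes. Htra1, a secreted serine protease, fell by 0.50 (SE 0.051) and Stc2, an inhibitor of the Pappa proteases, fell by 0.41 (SE 0.071). Mmp2, a matrix metalloproteinase, rose by 0.42 (SE 0.047) and Plat, tissue plasminogen activator, by 0.77 (SE 0.13) on its brighter and by 0.22 on its other probe set. Pappa and Pappa2 read 4.70 and 4.14 with Ctr9 esiRNA, against 4.66 and 4.12 with luciferase esiRNA, dim in both groups, and did not pass.

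Downstream of the receptors, 17 of 33 measured signalling genes rose, 4 fell and 12 did not pass, at a median of 0.15, against 15.8% higher and 15% lower among all genes. Only 1 of the 33 lay below the median signal, whereas the shares of all genes include dim genes. All pathway lists were written with results of these data known. Pik3r3, a regulatory subunit of PI3 kinase, rose by 0.85 (SE 0.074). Foxo4, a forkhead factor that Akt holds out of the nucleus, rose by 0.70 (SE 0.042) on its brightest probe set, while its second probe set, at 0.02, did not pass. Trib3, a stress-induced pseudokinase described as binding Akt, fell by 1.1 (SE 0.11), and Pdpk1, the kinase that activates Akt, fell by 0.57 (SE 0.052), each on both of its probe sets. The receptor substrates Irs1 and Irs2, named here after their values were seen, rose by 0.56 (SE 0.081) and 0.66 (SE 0.065) on their single probe sets.

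Genes of the let-7 pathway and other RNA-binding genes of embryonic tissue, the setting in which the Igf2bp genes are usually placed, rose in 7 of 11 cases, and 1 fell and 3 did not pass, at a median of 0.24. Lin28a, which blocks the maturation of let-7, rose by 0.79 (SE 0.054), and Hmga2, a chromatin protein whose mRNA let-7 represses, rose by 0.47 (SE 0.053) on its brightest probe set and passed on 3 of 4, the lowest at 0.02. Dicer1, which cuts miRNA precursors, rose by 0.39 (SE 0.054) and Dis3l2, an exonuclease for tagged let-7 precursors, fell by 0.28 (SE 0.048), each on its brightest probe set and on no other. Of 8 measured mRNAs that have been described as bound by Igf2bp proteins in various species, 5 rose, none fell in the limma fit, also at an unadjusted p under 0.05, and 3 did not pass, at a median of 0.335. Beside Igf2 these included Cd44, a hyaluronan receptor, which read 5.48 with Ctr9 esiRNA and 4.08 with luciferase esiRNA (1.4, SE 0.14; 3 of 4 probe sets higher, the lowest at 0.06), the atypical MAP kinase gene Mapk4 (0.65, SE 0.073) and the GTPase gene Cdc42 (0.26, SE 0.046; 3 of 4 probe sets higher, the lowest at 0.02). Both list counts stand against 15.8% higher and 15% lower among all genes. In each of these lists only 1 measured gene lay below the median signal, whereas the shares of all genes include dim genes.

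**Figure D4:**
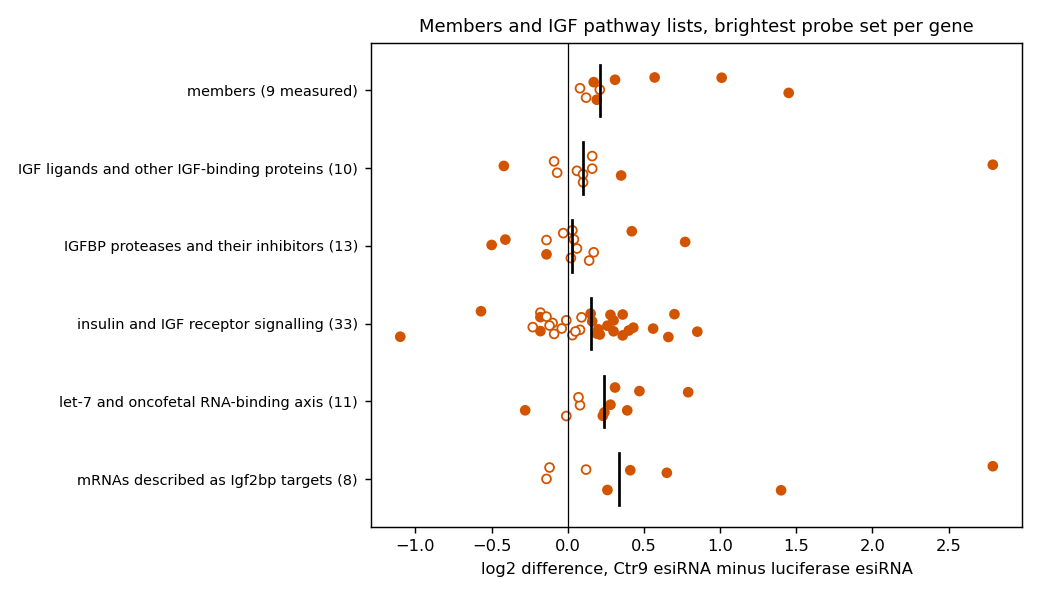
Log2 difference, Ctr9 esiRNA minus luciferase esiRNA (horizontal axis), of each gene's brightest probe set in the 9 measured members and the 5 pathway lists; filled points passed at an adjusted p under 0.05, black bars are list medians, and the vertical scatter within a row carries no value. The medians run from 0.03 for the proteases to 0.335 for the mRNAs described as Igf2bp targets, and Igf2 stands at 2.79 in both lists that hold it.

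Some IGF-binding proteins are made at high levels by fibroblasts and other differentiated cells, so marker lists were read beside them. All 24 fibroblast markers were measured, 12 of them below the median signal, and the mean of the 23 with a value on every array was 5.58 to 5.64 on the Ctr9 esiRNA arrays, against 5.40 to 5.52 on the luciferase arrays, ranges that do not overlap. Among the 24, 6 rose, which were Bgn (0.75, SE 0.11), Col5a2 (0.74, SE 0.093), Dcn (0.57, SE 0.12), Mmp2 (0.42), Twist1 (0.41, SE 0.057) and Col1a2 (0.24, SE 0.072). Fn1, which has no value on Ctr9 esiRNA replicate 1, differed by -0.48 (SE 0.055) and Loxl1 by -0.17 (SE 0.049), and both fell. The other 16 did not pass, among them Col1a1 (5.39 with Ctr9 esiRNA and 5.34 with luciferase esiRNA), Col3a1 (4.11 and 4.12) and Lum (4.21 and 4.20). The median difference of the 24 fibroblast markers was 0.055, so the separated means do not describe a rise of most of them. Trophoblast markers had a mean of 6.66 to 6.68 with Ctr9 esiRNA, against 5.91 to 6.04 with luciferase esiRNA, with 7 of 10 higher and none lower in the limma fit, also at an unadjusted p under 0.05. The mean of the 14 primitive and visceral endoderm markers with a value on every array was 6.18 to 6.30 with Ctr9 esiRNA. On the luciferase arrays it was 5.88 to 5.97. Of all 15 endoderm markers, 4 were higher, 1 was lower and 10 did not pass, at a median difference of 0.0. The 4 were Foxa2 (1.98, SE 0.17), Lrp2 (1.51, SE 0.094), Dab2 (1.26, SE 0.073) and Amn (0.29, SE 0.06), while Hnf4a fell by 0.16 (SE 0.051). The marker counts in this paragraph stand against 15.8% higher and 15% lower among all genes. The part of such cells in the differences of the members was not tested.

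Finally, the genes whose brightest probe set followed the members most closely over the 8 arrays were taken by the root mean square distance between profiles, each set to 0 at its own luciferase mean. Nearest to Igf1r were Cd276 (distance 0.0169 log2 units, difference 0.57) and Sh3glb1 (distance 0.0192, difference 0.56), of which Sh3glb1 has 2 other probe sets that did not pass. Nearest to Igfbp3 were Coch (distance 0.0345, difference 1.41) and Dnmt3b (distance 0.0683, difference 1.52). Nearest to Igf2bp1 were Cyb5a (distance 0.0172, difference 0.31) and Yap1 (distance 0.0255, difference 0.32). With 2 groups of 4 arrays such a distance is set mostly by the size of the group difference, and it is a description.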

How the data were processed

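The deposited table holds log2 probe set signals of 8 arrays, with total RNA as the extracted molecule and biotin as the label. GCOS 1.4 and RMA are named in the submitters' processing notes; the sources used here do not state their settings. Because RMA corrects for background and brings all arrays to 1 distribution, differences of dim probe sets come out smaller, and a shift of the whole transcriptome is lost. Values were used as deposited, without a filter. Of 45101 probe sets, 64 manufacturer's controls were left out. Symbols came from the platform annotation (34945 probe sets with 1 symbol, 932 with several, 9160 unnamed here) and were updated by Entrez identifier through a RefSeq gene table (GRCm38.p6), where 34741 of the single-symbol probe sets were found. The probe set with the highest mean among those of a single symbol stood for its gene. In all, 456 values are empty, at most 1 per probe set, and none belongs to a member.

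Groups were compared with limma 3.58.1 in R 4.3.3 (lmFit, eBayes, two-sided) with p-values adjusted by Benjamini-Hochberg across the 45037 tested probe sets and a threshold of 0.05. Standard errors (SE) are the moderated ones of that fit. With 4 against 4 arrays, an exact two-sided permutation test cannot give less than p = 0.0286, which every brightest member probe set reached except that of Igfbp5 (exact permutation p = 0.343). The labels do not say whether replicate numbers pair the arrays. Deviations of same-numbered arrays correlated at -0.0776 to 0.0625, and so few arrays cannot settle the question. Members and lists were chosen with earlier results of these data known. Named are all members, up to 4 genes per pathway list with the smallest adjusted p, Igf2, Igf2r and Ctr9, and the nearest 2 profiles per class. Irs1, Irs2, Pappa, Pappa2, Igfbp7, single markers and chromosomal neighbours were named after their values were seen. Alternatives were a filter on dim probe sets, 3 scalings, array weights, a robust prior with a trend, the replicate block, leaving out arrays, complete probe sets, a threshold of 0.01 and averaging the probe sets of a gene. Figures were drawn with matplotlib 3.10.9.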

Additional observations from a re-analysis of the deposited data

Results flagged for a closer look

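A single array lay far from the other 3 of its group, by Dixon's 95% limit for 4 values, in 3 of 60 groups of member values, and chance alone gives about 1 in 20. The dimmest Igf1r probe set read 4.25 on luciferase replicate 2, against 4.57 to 4.6 on the other luciferase arrays. An Igfbp4 probe set of the x type read 7.69 on luciferase replicate 4, against 7.95 to 7.99 on the others. The Igfbp4 probe set with the largest difference read 8.27 on Ctr9 esiRNA replicate 2, against 8.05 to 8.06 on the others. Both Igfbp4 calls held in all 8 fits without an array.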

How the results depend on the processing

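No call of a member probe set changed sign under any of the 18 alternatives fitted to it (17 for dim ones, which the filter removes). Among the 23 called probe sets, 18 kept their call in all 8 fits that leave out an array, and 5 lost it in at least 1 of them (the Insr, the dimmest Igfbp4 and 3 Igf2bp3 probe sets). Leaving out an array gave 18 to 21 member probe sets and 5 to 7 member genes higher, against 23 and 6, and 28 to 30 pathway genes higher and 7 to 10 lower, against 32 and 9. At a threshold of 0.01, 15 member probe sets and 4 member genes were called. Among probe sets above the median signal, and also when the probe sets of a gene were averaged, 8 member genes were higher. The pathway genes that fell numbered 14 among probe sets above the median signal and 14 when the probe sets of a gene were averaged. The replicate number was also fitted as a block, a pairing the check above does not settle (4 of 8 arrays correlate best with their own number). With that block, 19 member probe sets and 4 member genes were higher, and 29 pathway genes rose and 7 fell. Igfbp2 (limma adjusted p = 0.0526) and Insr (limma adjusted p = 0.0940) no longer passed. Without luciferase arrays 1 and 2, a pair taken from an earlier analysis of these data, 17 member probe sets and 6 member genes were called. Without luciferase arrays 3 and 4, the counts were 18 and 4. The 3 scalings put the median difference of all genes at 0.0061 to 0.0132, against 0.0036. Differences of dim probe sets are limited by the low signal.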

Other observations

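The neighbours of the IGF-binding protein genes were read by their brightest probe sets, since Igfbp2 lies next to Igfbp5 and Igfbp1 next to Igfbp3. Tns3, a tensin gene on the other side of Igfbp3, read 11.69 with Ctr9 esiRNA and 12.08 with luciferase esiRNA, a difference of -0.39 (SE 0.05, limma adjusted p = 0.000294), while Igfbp3 and Igfbp1 rose. Top2a, the topoisomerase gene next to Igfbp4, read 13.00 with Ctr9 esiRNA and 13.01 with luciferase esiRNA and did not pass (-0.01, SE 0.041), and Tns4 on the other side did not pass (0.22, SE 0.099). Rpl37a, next to Igfbp2, did not pass (-0.03, SE 0.041).

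Igfbp7, a secreted protein that binds IGFs weakly, has 3 probe sets, which did not move together. The brightest read 7.17 with Ctr9 esiRNA and 7.06 with luciferase esiRNA and did not pass (0.10, SE 0.072). The second read 5.59 with Ctr9 esiRNA and 5.98 with luciferase esiRNA and fell by 0.39 (SE 0.082, limma adjusted p = 0.00632). The dimmest differed by -0.14 (SE 0.064) and did not pass. Igfbp7 is therefore the IGF-binding protein gene read here with a probe set that fell, and its brightest and second probe sets have opposite signs.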
